A study of Saccharomyces cerevisiae with 11 samples.

Results

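The mitochondrial genome of Saccharomyces cerevisiae was examined in 11 micrococcal nuclease libraries, as 429 tiles of 200 bp along the mitochondrial contig (85779 bp, the last tile 179 bp), out of 60794 tiles on all 17 contigs. Tiles were taken by contig and position alone, without regard to their coverage. Each tile's coverage, the number of fragments over each base, was divided by the mean coverage of its own contig in the same library and is called relative coverage, so that 1 is the contig mean. The contig was also described by its share of all fragments, by the length of its fragments and by its genes.

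Micrococcal nuclease cuts DNA that is not protected by protein, and in nuclear chromatin the fragments that remain are mostly those wrapped around histone octamers. Yeast mitochondrial DNA carries no histones. It lies inside the organelle in nucleoids, in which the HMG-box protein Abf2 binds and bends the DNA, and its genes for respiratory chain and ATP synthase subunits, rRNAs and tRNAs are separated by long AT-rich intergenic stretches.

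The study asked how nucleosomes change when the topoisomerases Top1 and Top2 are depleted. All cells were of the BY4742 background, carried Top1-AID and Top2-AID, in which an auxin-inducible degron is fused to each topoisomerase, grew in galactose and were fixed before spheroplasts were digested. The OsTIR1 strain (yTL1290) expresses the plant F-box protein OsTIR1, which auxin needs to target the degron, from the ADH1 promoter, and the other strain (yTL1245) lacks it. By the labels there were OsTIR1 cells with 500 uM auxin for 60 min at the high (n = 2) and the low (n = 1) nuclease dose, untreated OsTIR1 cells at the high and the low dose (n = 2 each) and cells without OsTIR1 at the high and the low dose (n = 2 each). The high dose was 0.1875 U and the low dose 0.01171875 U. The OsTIR1 culture was split before treatment into an untreated and a treated part, per the labels. Nothing says that replicates came from separate cultures or that the digests of a state did, so p-values measure the spread between these libraries only. They are too small where replicates of a group share a culture. In the sign-flip tests over libraries they are also too small where the digests of a state do. The comparisons of dose and of auxin took no account of a culture shared between the libraries compared.

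The labels and the deposited file names were at odds for 4 libraries. The libraries labelled OsTIR1 auxin low replicate 1 and OsTIR1 untreated low replicate 2 are high-dose libraries by file name, and those labelled OsTIR1 auxin high replicate 1 and OsTIR1 untreated high replicate 2 are low-dose libraries by file name. The last of these is an auxin library by file name. By file name the high dose held 6 libraries (2 auxin, 2 untreated, 2 without OsTIR1) and the low dose 5 (2 auxin, 1 untreated, 2 without OsTIR1). Tests followed the labels, and each is given by file-name groups as well. The mean length of nuclear fragments, which gives the extent of digestion, lay between 129.0 and 140.3 bp in the 6 libraries that are high-dose by file name and between 149.8 and 162.2 bp in the 5 that are low-dose, without overlap. By the labels the groups overlapped, at 129.3 to 162.2 bp for the high dose and 129.0 to 161.1 bp for the low dose. Values below are therefore described by file-name dose.

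Total fragments ran from 9220720 to 31178329 per library, and mitochondrial fragments from 8382 to 2837723. The library of no OsTIR1 high replicate 2 stood apart by its low mitochondrial depth, with 19.5 fragments per tile and 591 bases at 0 coverage, which limits its tile values to a counting error of about 22.6%. The other libraries that are high-dose by file name had 60.6 to 161.2 mitochondrial fragments per tile, and the low-dose ones 733.5 to 6616.4. Several results that this library moves are given without it as well.

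The share of fragments from the mitochondrial contig was low in the strongly digested libraries and high in the weakly digested ones. At the high dose by file name it was 0.135 and 0.412% in the auxin libraries, 0.287 and 0.234% in the untreated OsTIR1 libraries and 0.129 and 0.0750% in those without OsTIR1. At the low dose by file name it was 3.41 and 7.97% in the auxin libraries (the libraries labelled OsTIR1 untreated high replicate 2 and OsTIR1 auxin high replicate 1), 8.70% in the untreated one, and 5.53 and 20.6% in those without OsTIR1. The doses did not overlap by file name, and the library of no OsTIR1 low replicate 2, at 20.6%, was the highest of the 11. With Wilson 95% intervals, the lowest share lay between 0.0734 and 0.0766% and the highest between 20.5 and 20.6%, which covers counting error only.

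**Figure D1:**
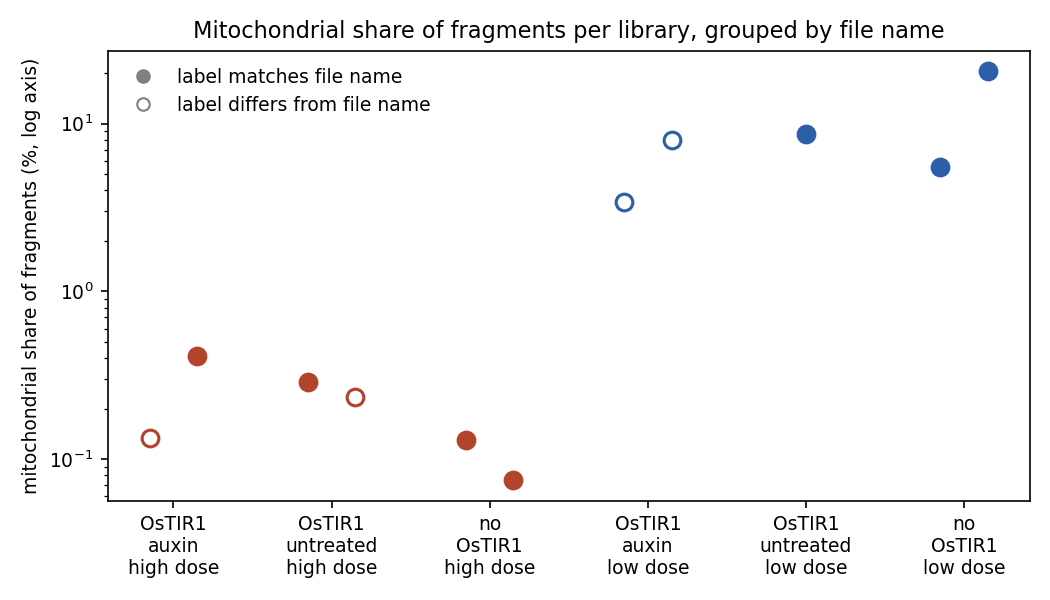
Mitochondrial share of all fragments (percent, logarithmic axis) in each of the 11 libraries, grouped by the dose and state in the file name. Filled points are libraries whose label matches the file name and open points the 4 whose label differs. All 6 high-dose libraries lie at or below 0.412% and all 5 low-dose libraries at or above 3.41%.

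In terms of coverage, a mitochondrial base was covered 0.109 to 0.572 times as deeply as a nuclear base at the high dose by file name, against 4.42 to 32.4 times at the low dose. The share averaged 0.212 ± 0.125% (SD, n = 6) at the high dose and 9.24 ± 6.67% (SD, n = 5) at the low dose by file name. The difference within states was −9.0 percentage points, with p = 0.00926 in a two-sided exact permutation test within states, the smallest of its 108 arrangements can give, and an adjusted p of 0.0417 (Benjamini-Hochberg over 9 tests of this kind). On the log2 scale the difference was −5.48. By the labels the shares averaged 2.05% at the high dose and 7.03% at the low dose, a difference of −4.82 points within states (exact permutation p = 0.306, adjusted p = 0.792). With only the 7 libraries of matching label and file name, the difference was −11.4 points, and the smallest p that 12 arrangements allow is 0.167. Only fragments of 95 to 225 bp were kept, so the share counts neither mitochondrial nor nuclear fragments outside that range. The parts of this range, of loss of DNA to the nuclease and of mitochondrial genomes per cell in the share were not tested.

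Mitochondrial fragments were shorter than nuclear ones in the weakly digested libraries and of nearly the same length in the strongly digested ones. At the high dose by file name, mean mitochondrial fragment lengths were 130.9 and 126.8 bp in the auxin libraries, 126.9 and 130.3 bp in untreated OsTIR1 and 133.5 and 145.1 bp without OsTIR1. Nuclear fragments of the same libraries averaged 129.0 and 129.3 bp, 131.1 and 132.4 bp, and 133.6 and 140.3 bp. At the low dose by file name, mitochondrial lengths were 144.3 and 127.5 bp in the auxin libraries, 126.5 bp in untreated OsTIR1 and 144.2 and 142.4 bp without OsTIR1, where nuclear fragments averaged 162.2 and 150.1 bp, 149.8 bp, and 161.1 and 160.3 bp. Mitochondrial lengths thus overlapped between the doses, while nuclear lengths did not.

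**Figure D2:**
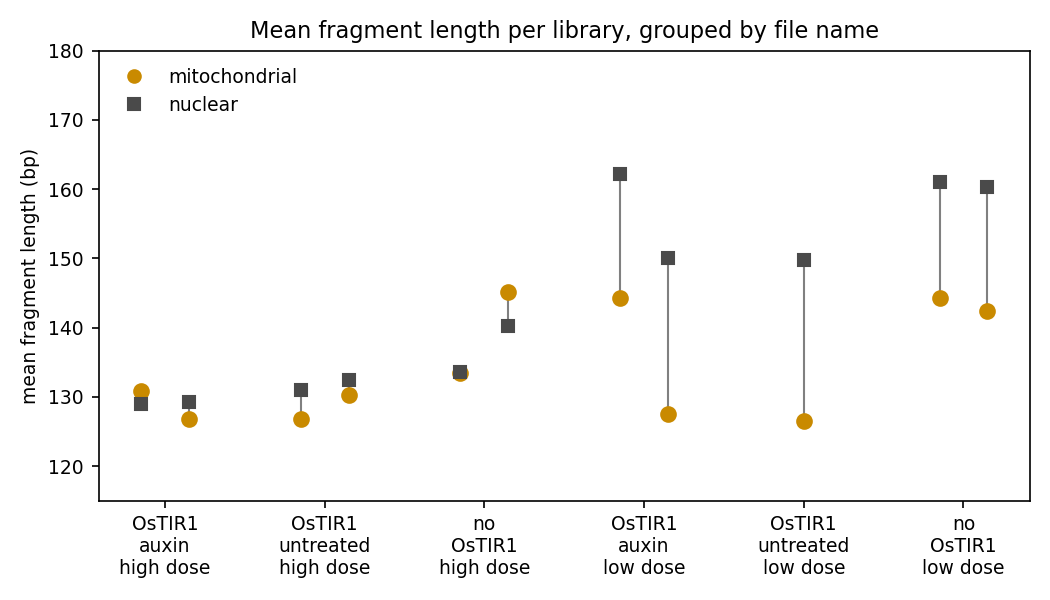
Mean length of mitochondrial fragments (circles) and nuclear fragments (squares) in base pairs in each library, joined by a line and grouped by the dose and state in the file name; the axis does not start at 0. The 5 low-dose libraries show mitochondrial fragments below nuclear ones, with differences of −23.3 to −16.9 bp.

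The mitochondrial minus nuclear length was −4.19 to 4.79 bp (mean −0.377 ± 3.28 bp, SD, n = 6) at the high dose and −23.3 to −16.9 bp (mean −19.7 ± 3.01 bp, SD, n = 5) at the low dose by file name. The difference between the doses within states was 19.9 bp (exact permutation p = 0.00926, the smallest possible; adjusted p = 0.0417 over 9 tests). By the labels it was 4.43 bp (exact permutation p = 0.528). By file name mitochondrial lengths averaged 132.2 ± 6.8 bp at the high dose and 137.0 ± 9.2 bp at the low dose. Nuclear lengths averaged 132.6 ± 4.2 and 156.7 ± 6.2 bp. The difference by file name thus lay mostly in nuclear lengths, whose separation led to the use of file-name doses. Its test is therefore not a separate result about mitochondrial fragments. Over all 11 libraries mitochondrial fragments were 9.17 bp shorter on average, in 9 of 11 libraries, with p = 0.0244 in an exact sign-flip permutation test (adjusted p = 0.0244 over 4 tests). The authors kept fragments of 95 to 225 bp, so fragments outside that range add to neither mean.

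Coverage of the mitochondrial contig showed no local maximum of autocorrelation at the spacing that nucleosomes give to nuclear coverage. The autocorrelation of per-base coverage measures how alike positions a given distance apart are, and regularly spaced nucleosomes raise it again near the repeat length. The rise from the lowest point at lags of 60 to 130 bp to a local maximum at lags of 130 to 200 bp was 0 on the mitochondrial contig in all 11 libraries. The median of the 16 nuclear contigs rose by 0.166 and 0.188 in the auxin libraries, 0.285 and 0.253 in untreated OsTIR1 and 0.257 and 0.208 without OsTIR1 at the high dose by file name, and by 0 to 0.0112 at the low dose. The mitochondrial value was lower than the nuclear median in 8 of 11 libraries and equal to it in the other 3, all of low dose by file name. The measure cannot fall below 0, so no test of this difference is given. The absence of a rise is not particular to the mitochondrial contig. At the high dose the lowest of the 16 nuclear contigs rose by 0 in both auxin libraries and by at most 0.0245 in the others. The highest rose by 0.209 to 0.333. Dividing coverage by its running mean also gave a mitochondrial value of 0 in every library. The nuclear median by this measure was 0.150 to 0.266 at the high dose by file name. The lowest nuclear contig was not examined by it, and what sets that contig apart was not tested.

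**Figure D3:**
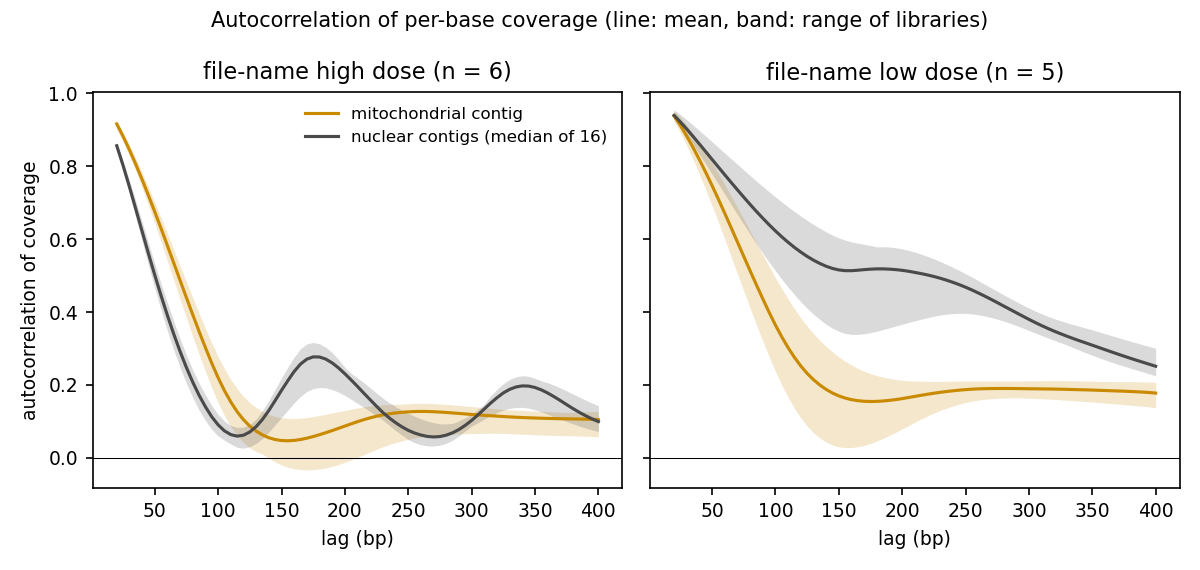
Autocorrelation of per-base coverage against lag (bp) for the mitochondrial contig and for the median of the 16 nuclear contigs, at the high (left) and the low (right) dose by file name; lines are means and bands the range over libraries. At the high dose and a lag of 180 bp the mitochondrial curve averages 0.0636 and the nuclear one 0.277.

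At the high dose the mitochondrial autocorrelation averaged 0.0469 at a lag of 155 bp and 0.127 at 255 bp, a broad rise that passed 0.0872 at 200 bp and so began within the window used above, without a maximum there. The nuclear median averaged 0.212 at 155 bp and 0.0681 at 255 bp. At the low dose the mitochondrial curve averaged 0.164 at 155 bp and 0.188 at 255 bp.

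Mitochondrial coverage was uneven, and tile values were correlated between libraries. The coefficient of variation over 200 bp tiles was 0.427 to 0.565 on the mitochondrial contig at the high dose by file name, against nuclear medians of 0.245 to 0.266, and 0.415 to 0.794 at the low dose, against 0.390 to 0.645. On the mitochondrial contig it was above the nuclear median in 10 of 11 libraries (mean difference 0.199 ± 0.162, SD, exact sign-flip permutation p = 0.00488, adjusted p = 0.00977 over 4 tests). The exception was no OsTIR1 low replicate 2, which also had the highest mitochondrial share, at 0.415 for the mitochondrial contig and 0.645 for the nuclear median. The most uneven nuclear contig had a coefficient of 2.54 to 3.33 at the high dose and 3.75 to 4.60 at the low dose by file name. That is above the mitochondrial contig in every library. Counting error adds to this coefficient most where fragments are few.

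As a description over the 429 tiles, which share libraries and sequence, Pearson's r of mitochondrial relative coverage was 0.819 to 0.971 for the 15 pairs of libraries of high dose by file name and 0.848 to 0.985 for the 10 pairs of low dose. For the 30 pairs of different dose it was 0.711 to 0.960, with a median of 0.911. Without no OsTIR1 high replicate 2, whose r with the other 10 libraries was 0.711 to 0.839, the pairs of different dose had a median of 0.927. Nuclear tiles had a median r of 0.978 between high-dose libraries, 0.961 between low-dose libraries and 0.851 between doses.

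Genes carried more coverage than the stretches between them. The annotation lists 46 mitochondrial genes, of which 24 are tRNA genes, 19 protein-coding genes (10 of them intron ORFs), 2 rRNA genes and 1 the RNase P RNA gene RPM1. Genes covered 33794 bases (39.4%), merged into 34 blocks, and 51985 bases lay in 35 intergenic gaps. Introns count as gene here, since the annotation gives only the start and end of each gene.

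Mean relative coverage at the high dose by file name was 1.39 and 1.31 in genes against 0.746 and 0.796 in intergenic bases of the auxin libraries. In untreated OsTIR1 it was 1.36 and 1.37 against 0.765 and 0.756, and without OsTIR1 it was 1.38 and 1.21 against 0.755 and 0.865. At the low dose by file name it was 1.52 and 1.43 against 0.662 and 0.721 in the auxin libraries, 1.44 against 0.713 in untreated OsTIR1, and 1.46 and 1.29 against 0.703 and 0.812 without OsTIR1. Genes were above intergenic bases in every library, by 1.40-fold in no OsTIR1 high replicate 2 up to 2.30-fold in the library labelled OsTIR1 untreated high replicate 2.

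The log2 ratio averaged 0.871 ± 0.198 (SD, n = 11) and was positive in 11 of 11 libraries (exact sign-flip permutation p = 0.000977, the smallest it can give; adjusted p = 0.00391 over 4 tests). It was 0.48 to 0.90 at the high dose (mean 0.778 ± 0.157, SD, n = 6) and 0.67 to 1.20 at the low dose by file name (mean 0.984 ± 0.195, SD, n = 5). The doses overlapped, and the difference of −0.217 within states did not pass the test (exact permutation p = 0.0833). In nuclear tiles the same ratio, over tiles at least 80% within or outside genes, was 0.14 to 0.31 at the high dose and −1.06 to −0.61 at the low dose. The mitochondrial tile ratio exceeded the nuclear one in 11 of 11 libraries, by 1.09 ± 0.69 on average (exact sign-flip permutation p = 0.000977, the smallest it can give; a test added after the values were seen). The nuclear ratio thus had opposite signs at the doses, and the mitochondrial one was positive at both.

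Among single tiles, the 155 tiles at least 80% within genes had a median relative coverage over the libraries of 1.42, the 239 intergenic tiles 0.710 and the 35 mixed tiles 0.886. Of the gene tiles 122 lay above 1 and 3 below 0.5. Of the intergenic tiles 67 lay above 1, 81 below 0.5 and 35 below 0.25, so the classes overlapped widely.

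**Figure D4:**
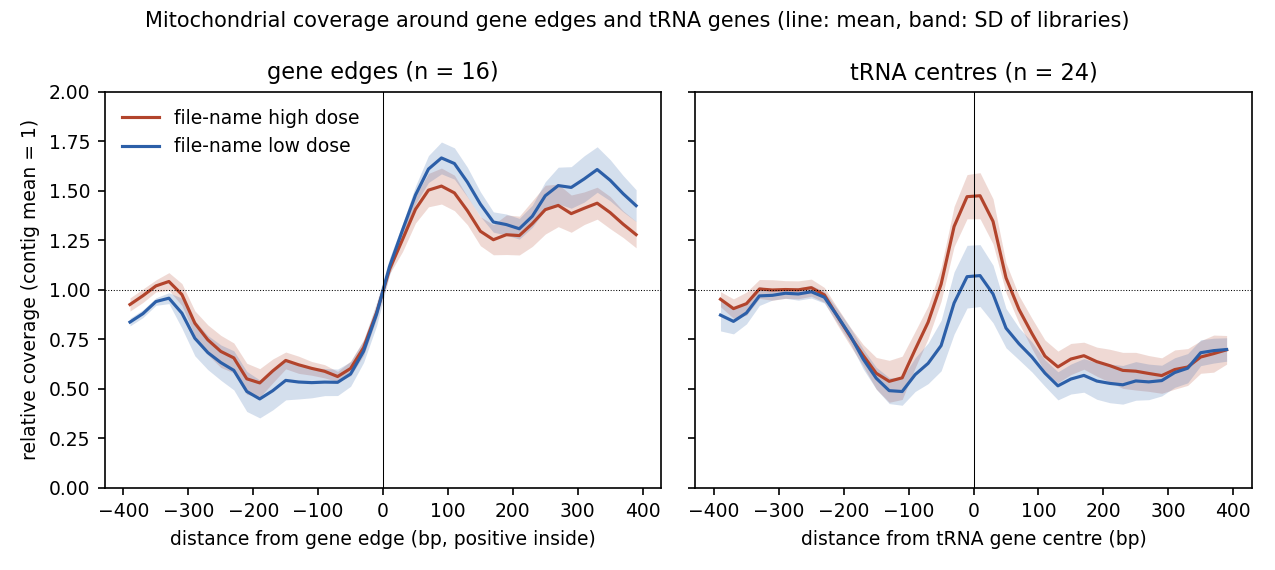
Relative coverage (contig mean = 1) against distance from 16 gene edges (left, positive inside the gene) and from the centres of 24 tRNA genes (right), in bins of 20 bp; lines are means over libraries of each file-name dose and bands their SD. Coverage at gene edges climbs from a low near 0.5 at 190 bp outside to above 1.5 at 90 bp inside at both doses. At 330 bp outside it is near 1 again. The tRNA peak is higher at the high dose.

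At the 16 edges where a gene block of at least 700 bp met a gap of at least 400 bp, coverage changed over a short distance. At 190 bp outside the edge it averaged 0.530 ± 0.072 at the high dose (SD, n = 6) and 0.449 ± 0.096 at the low dose (SD, n = 5) by file name. At 90 bp inside it averaged 1.52 ± 0.09 and 1.67 ± 0.08 at these doses. Between these points it passed 1 close to the edge itself. These bins were the lowest outside and the highest inside, not the level of either side. At 330 bp outside coverage was back at 1.04 ± 0.04 at the high dose and 0.958 ± 0.027 at the low dose. At 170 bp inside it had fallen to 1.25 ± 0.08 and 1.34 ± 0.05.

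The 7 subunit genes of the respiratory chain and the ATP synthase averaged 1.59 ± 0.12 at the high dose (SD, n = 6) and 1.67 ± 0.10 at the low dose by file name (SD, n = 5). COX2 (MT:73758-74513), which encodes subunit 2 of cytochrome c oxidase, had a relative coverage of 1.98 ± 0.29 (SD, n = 11). OLI1 (MT:46723-46953), the ATP synthase subunit 9 gene, had 1.98 ± 0.16, and COX3 (MT:79213-80022), for cytochrome c oxidase subunit 3, had 1.80 ± 0.13. These genes were above the mean of intergenic bases in all 11 libraries.

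ATP6 (MT:28487-29266) and ATP8 (MT:27666-27812), which encode ATP synthase subunits, had 1.53 ± 0.10 and 1.25 ± 0.19. COX1 (MT:13818-26701), the gene of cytochrome c oxidase subunit 1, averaged 1.49 ± 0.16 over a span that includes its introns. COB (MT:36540-43647), which encodes cytochrome b and also holds introns, averaged 1.36 ± 0.05.

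The 10 intron ORFs, which encode maturases and homing endonucleases, lie inside COX1, COB and the 21S rRNA gene and share their bases, so they are not separate measurements. They ran from 1.26 ± 0.04 for BI3 to 1.71 ± 0.26 for AI2. SCEI (MT:61022-61729), the endonuclease gene in the intron of the 21S rRNA gene, had 1.65 ± 0.31, above the 21S_RRNA span that holds it.

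The rRNA genes were lower. 21S_RRNA (MT:58009-62447), for the large ribosomal subunit, had 1.25 ± 0.10, and 15S_RRNA (MT:6546-8194), for the small one, 1.10 ± 0.10. RPM1 (MT:85295-85777), the RNA of mitochondrial RNase P, had 0.856 ± 0.071 and ends 2 bases before the end of the contig.

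VAR1 (MT:48901-50097), the gene of a protein of the small mitochondrial ribosomal subunit, was the lowest of the 46 genes. Its relative coverage was 0.639 ± 0.090 (SD, n = 11), from 0.495 to 0.811. It lay below the mean of intergenic bases in all 11 libraries, by the least in no OsTIR1 low replicate 2, at 0.811 against 0.812. Of the 46 genes 37 were above that mean in every library, and the 8 others that were not are tRNA genes.

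**Figure D5:**
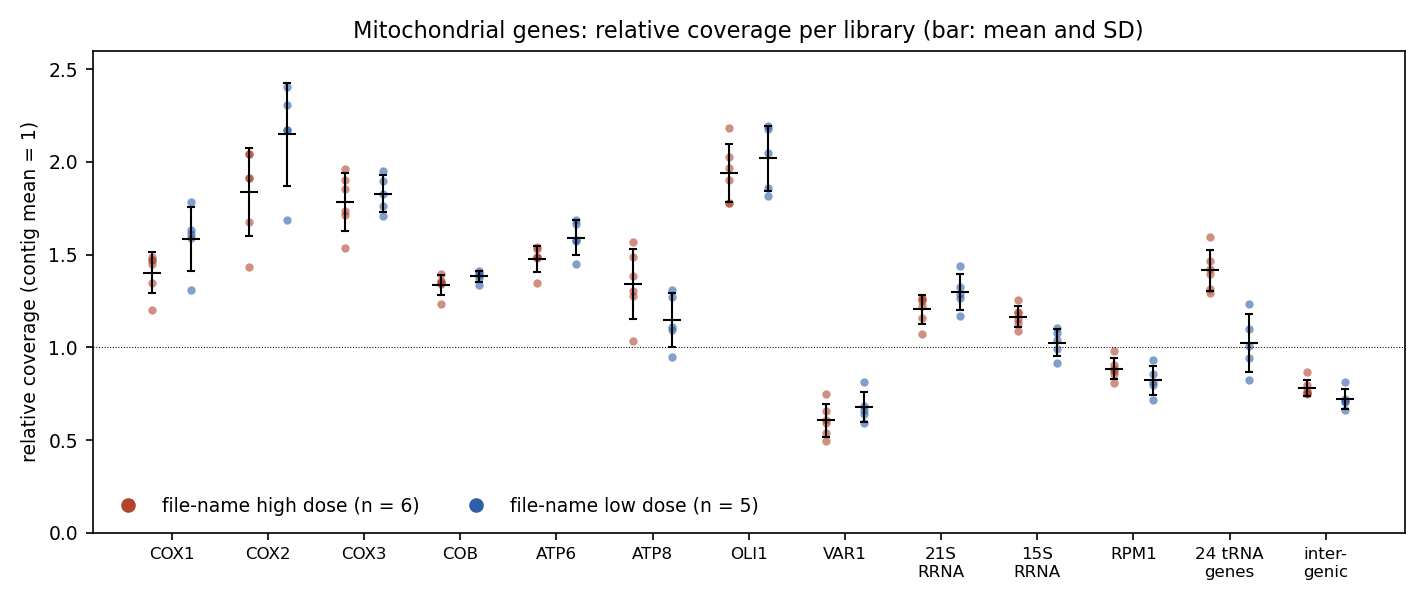
Relative coverage (contig mean = 1) of named mitochondrial genes, of the mean of 24 tRNA genes and of intergenic bases in each library, at the high (left of each pair) and the low dose by file name; black bars are the mean and SD. COX2 and OLI1 lie highest, VAR1 lowest among genes, and the tRNA mean is higher at the high dose without overlap.

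The 24 tRNA genes are 71 to 90 bp long, shorter than the fragments, so their values include flanking DNA. Their mean at the high dose by file name was 1.32 and 1.60 in the auxin libraries, 1.46 and 1.40 in untreated OsTIR1 and 1.29 and 1.42 without OsTIR1. At the low dose it was 0.827 and 1.01 in the auxin libraries, 1.10 in untreated OsTIR1 and 0.941 and 1.23 without OsTIR1. The doses did not overlap. Around tRNA gene centres, coverage in the bin 10 bp from the centre was 1.48 ± 0.12 at the high dose (SD, n = 6) and 1.07 ± 0.16 at the low dose (SD, n = 5). At 150 bp to the left it was 0.579 ± 0.080 and 0.554 ± 0.055. On the right at 150 bp it was 0.651 ± 0.079 and 0.550 ± 0.076. Nearer the gene, at 90 bp to the left, it was 0.699 ± 0.092 and 0.572 ± 0.085. These differences were smaller than at the centre but reached beyond the tRNA genes.

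The intergenic gaps were not alike. Of the 35 gaps, 9 averaged below 0.5 and 2 above 1. The gap between tN(GUU)Q and tM(CAU)Q1 (MT:71504-72629, 1126 bp) had 0.239. The longest gap, of 7911 bp between VAR1 and 21S_RRNA (MT:50098-58008), had 0.790, and it held the highest tile of the contig.

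That tile (MT:53601-53800) lay 3504 bp from VAR1 and 4209 bp from 21S_RRNA and had a relative coverage of 3.19, from 2.00 to 4.45 over the libraries. The next highest were MT:16601-16800 within the span of COX1 and its intron ORFs, at 2.47, and MT:41601-41800 within COB and BI4, at 2.26. The lowest tiles were all intergenic. MT:72201-72400, between tN(GUU)Q and tM(CAU)Q1, averaged 0.0720, MT:11201-11400 averaged 0.0987 and MT:9601-9800 averaged 0.112, these last in the gap between tW(UCA)Q and COX1.

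The nuclease dose changed the relative coverage of many mitochondrial tiles, though of a smaller share of tiles than in the genome. With limma on log2(relative coverage + 0.1) over all tiles and Benjamini-Hochberg adjustment, 427 mitochondrial tiles of 60734 tiles in all passed a minimum mean relative coverage of 0.1, and MT:72201-72400 and MT:11201-11400 did not. By file-name groups 209 of the 427 passed an adjusted p of 0.05 between the doses, 123 higher and 86 lower at the high dose. That is 48.9%, against 80.1% of all tiles (54.0% higher, 26.2% lower). The median absolute log2 change was 0.24 in mitochondrial tiles and 0.49 in all tiles. At the high dose by file name mean coverage was 14.2 to 102 on the mitochondrial contig and 130 to 345 in the nucleus. The part of this lower depth in the share of calls was not tested. Without no OsTIR1 high replicate 2, 188 passed, and leaving out other libraries in turn gave 145 to 245. The lowest counts were 145 without OsTIR1 auxin high replicate 2, 146 without no OsTIR1 low replicate 1 and 146 without the library labelled OsTIR1 untreated high replicate 2.

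Divided by the contig median in place of its mean, the split turned to 62 higher and 174 lower of 236, and the median mitochondrial log2 change moved to −0.16 from 0.01. By the labels 0 tiles passed for dose, on the mitochondrial contig and over all tiles (0.0% of 60734), with 2 mitochondrial tiles at an unadjusted p under 0.05. With only the 7 libraries of matching label and file name, 108 mitochondrial tiles passed (65 higher, 43 lower), against 79.8% of all tiles (54.1% higher, 25.7% lower). Relative coverage did not overlap between the file-name doses in 28 mitochondrial tiles (15 higher, 13 lower), 6.53%, against 58.2% of all tiles.

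On the scale of the contig mean, calls in gene tiles were mostly lower and calls in intergenic tiles mostly higher at the high dose. Of 155 gene tiles 25 were higher and 48 lower at the high dose by file name, with a median log2 change of −0.14. Of 237 intergenic tiles 82 were higher and 35 lower, with a median of 0.09. Of the 28 tiles that touch a tRNA gene 15 were higher and 1 lower, with a median of 0.28. Over all 427 tiles the median was 0.01. In either direction 47.1% of the gene tiles, 49.4% of the intergenic tiles and 57.1% of the tRNA tiles were called. Of all 60734 tiles of the genome 80.1% were called (54.0% higher, 26.2% lower), with a median log2 change of 0.26. The median of the tRNA tiles was thus close to that of all tiles, and a rise is not particular to them. Calls over all tiles were mostly higher as well, so that direction is not particular to intergenic tiles either. With 1 value per library, the gene over intergenic ratio did not pass between the doses by file name (exact permutation p = 0.0833). By the contig median the gene tiles were still mostly lower (6 higher, 96 lower), while the intergenic tiles turned to 46 higher and 70 lower, and the tiles that touch a tRNA gene had 10 higher and 2 lower.

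Tiles with a mean relative coverage of 1.5 or more had 2 higher and 39 lower of 87, and those of 0.5 to 1 had 78 higher and 5 lower of 139. Tiles below 0.5 had 12 higher and 22 lower of 85. In either direction 47.1%, 59.7% and 40.0% of these classes were called, against 80.1% of all 60734 tiles (54.0% higher, 26.2% lower). These classes were made from the same libraries and are a description.

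The named tiles show the size of these changes. MT:54801-55000, between VAR1 and 21S_RRNA, had 0.618 ± 0.128 at the high dose (SD, n = 6) and 0.236 ± 0.112 at the low dose by file name (SD, n = 5), a log2 change of 1.13 (SE 0.183, limma adjusted p = 4.08e-05). MT:77401-77600, which holds tF(GAA)Q, the gene of a phenylalanine tRNA, had 1.08 ± 0.24 and 0.469 ± 0.183, a log2 change of 1.08. MT:67001-67200, which holds tK(UUU)Q, a lysine tRNA gene, had 1.45 ± 0.10 and 0.723 ± 0.271, a log2 change of 0.96.

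The largest falls were at tiles that were low throughout. MT:5601-5800, before 15S_RRNA, had 0.136 ± 0.042 at the high dose and 0.315 ± 0.066 at the low dose by file name, a log2 change of −0.77 (SE 0.111, limma adjusted p = 1.28e-05). Its neighbour MT:5801-6000 had 0.120 ± 0.052 and 0.268 ± 0.056, and MT:49201-49400 within VAR1 had 0.223 ± 0.079 and 0.409 ± 0.083.

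Taken over whole genes, 26 of the 46 mitochondrial genes passed the limma test between the doses by file name, 18 higher and 8 lower at the high dose, in a fit over 6471 annotated genes of which 85.1% passed (70.9% higher, 14.3% lower). Without no OsTIR1 high replicate 2, 21 passed. By the labels 0 passed, with 0 at an unadjusted p under 0.05 and 0.0% of all genes. The gene fit was added after the tile values were seen.

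Of the 24 tRNA genes 17 passed, all higher at the high dose, a share of 70.8% that is close to that of all genes called higher. The largest change was that of tF(GAA)Q, at 1.57 ± 0.31 for the high dose (SD, n = 6) and 0.655 ± 0.271 for the low dose (SD, n = 5), with ranges of 1.19 to 1.88 and 0.354 to 1.07 that did not overlap, and a log2 change of 1.18 (SE 0.225, limma adjusted p = 0.000534). The relative coverage of tQ(UUG)Q was 1.16 ± 0.17 and 0.566 ± 0.158, and that of tK(UUU)Q was 1.98 ± 0.16 and 1.01 ± 0.38. By the contig median 11 tRNA genes were higher and 1 lower, and leaving out a library in turn gave 13 to 19 higher.

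Of the protein-coding genes 8 passed, all lower at the high dose. They were COX1, the COX1 intron ORFs AI2, AI3, AI4, AI5_ALPHA and AI5_BETA, the endonuclease gene SCEI and Q0255, an ORF whose first bases overlap the end of COX2. This count rested on single libraries: leaving out any of 8 libraries in turn left 3 lower genes, AI5_BETA, SCEI and Q0255, and leaving out OsTIR1 auxin low replicate 1 left 4. Without no OsTIR1 high replicate 1 there were 12 and without no OsTIR1 low replicate 2 there were 11, the only left-out libraries with which COX1 still passed. With the replicate block 4 were lower, and among the 7 libraries with matching labels and file names, 1. Q0255 had 1.32 ± 0.05 at the high dose and 1.66 ± 0.19 at the low dose, a log2 change of −0.31 (SE 0.0692, limma adjusted p = 0.00175), without overlap. COX1 had 1.40 ± 0.11 at the high dose and 1.59 ± 0.17 at the low dose, with overlap (log2 change −0.17, limma adjusted p = 0.0439). Of the rRNA genes 15S_RRNA was higher at the high dose, at 1.17 ± 0.06 against 1.03 ± 0.07 (log2 change 0.17, limma adjusted p = 0.0132), but by the contig median its log2 change was −0.02 and did not pass. COX2, COX3, COB, ATP6, ATP8, OLI1, VAR1, 21S_RRNA and RPM1 did not pass on the scale of the contig mean. By the contig median 19 genes were lower, VAR1, COX2, COX3, COB, ATP6 and 21S_RRNA among them.

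Depletion of Top1 and Top2 was addressed by setting auxin-treated against untreated OsTIR1 cells. No difference of the mitochondrial genome passed a test. By file name the shares at the high dose were 0.135 and 0.412% with auxin and 0.287 and 0.234% untreated, and at the low dose 3.41 and 7.97% with auxin and 8.70% untreated. The difference within doses was −1.20 points by file name (exact permutation p = 0.556) and −0.328 points by the labels (exact permutation p = 0.889), where 18 arrangements allow no p below 0.0556. The gene over intergenic log2 ratio was 0.90 and 0.72 with auxin and 0.83 and 0.86 untreated at the high dose by file name, and 1.20 and 0.99 with auxin and 1.01 untreated at the low dose, a difference of 0.01 by file name and −0.11 by the labels (exact permutation p = 0.944 and 0.500). The mitochondrial minus nuclear fragment length differed by 2.92 bp by file name and 4.90 bp by the labels (exact permutation p = 0.222 and 0.667).

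Of the 427 mitochondrial tiles 0 passed the limma test for auxin by the labels (0 at an unadjusted p under 0.05, 0.0% of all tiles called) and 0 by file name (2 at an unadjusted p under 0.05, 0.0198% of all tiles called). Over all 60734 tiles, 99 by the labels and 9466 by file name were at an unadjusted p under 0.05. The fit by the labels puts 4 libraries at a dose that their file names do not give. Its count of 0 therefore draws no conclusion about auxin. Of the 46 genes 0 passed by the labels and 0 by file name (1 at an unadjusted p under 0.05, 2.55% of all genes called), with a smallest adjusted p of 0.0924. Gene log2 changes by file name ran from −0.31 to 0.12. Among the libraries of high dose by file name alone, 0 tiles passed, with 0.301% of all tiles called. At an unadjusted p under 0.05 there were 20 mitochondrial tiles, of 7509 among all tiles. With 3 or 4 auxin libraries these tests do not show that the pattern was the same.

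The presence of OsTIR1 was addressed by setting untreated OsTIR1 cells against the strain without it. The mitochondrial share at the high dose by file name was 0.287 and 0.234% with OsTIR1 and 0.129 and 0.0750% without, and at the low dose 8.70% with and 5.53 and 20.6% without. The difference within doses was −1.64 points by file name (exact permutation p = 1.00) and −3.42 points by the labels (exact permutation p = 0.667). It changed sign, to 1.16 points by file name and 0.622 points by the labels, without no OsTIR1 low replicate 2.

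The mitochondrial minus nuclear fragment length was −4.19 and −2.11 bp in untreated OsTIR1 and −0.0995 and 4.79 bp without OsTIR1 at the high dose by file name, and −23.3 bp with and −16.9 and −17.9 bp without at the low dose. The groups did not overlap within either dose. The difference was −5.67 bp by file name (exact permutation p = 0.0556, which no arrangement of the 18 could make smaller; adjusted p = 0.167 over 9 tests), and −4.35 bp by the labels (exact permutation p = 0.556). The gene over intergenic log2 ratio differed by 0.17 by file name and 0.21 by the labels (exact permutation p = 0.500 and 0.333).

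For OsTIR1 0 mitochondrial tiles passed the limma test by the labels (19 at an unadjusted p under 0.05, 0.00329% of all tiles called) and 0 by file name (54 at an unadjusted p under 0.05, 0.00659% of all tiles called). Over all 60734 tiles, 81 by the labels and 1128 by file name were at an unadjusted p under 0.05. The fit by the labels has the same limit here as for auxin. Without no OsTIR1 high replicate 2 the mitochondrial counts were 3 by the labels and 22 by file name (35 and 497 of all tiles). Leaving out other libraries in turn gave 3 to 43 mitochondrial tiles by the labels and 30 to 99 by file name. Among the libraries of high dose by file name alone, 0 mitochondrial tiles passed (0.00659% of all tiles called), and 78 were at an unadjusted p under 0.05, of 814 among all tiles. Of the 46 genes 0 passed by the labels and 0 by file name (0 and 2 at an unadjusted p under 0.05, 0.0155% of all genes called in each). Gene log2 changes by file name ran from −0.23 to 0.36.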

How the data were processed

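The deposited files of the 11 libraries gave, for each of 17 contigs, the fragment coverage of every base, the number of fragments, and a second list that equalled coverage divided by that number (largest difference 0) and was not used. Per the submitters' processing notes, reads were aligned with Bowtie2 to sacCer3. Per the deposited files' names the authors kept fragments of 95 to 225 bp. How duplicates and reads matching several places were treated is not given in the sources used here, and nuclear copies of mitochondrial sequence could share reads.

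Coverage was divided by the contig's mean in the same library, and mean fragment length is summed coverage over fragments. Gene positions came from the RefSeq annotation of R64, the assembly of sacCer3. Shifting the mitochondrial genes by up to 300 bp gave the best separation from intergenic coverage at 0 bp in all 11 libraries. The test for tiles and genes of all contigs was limma 3.58.1 in R 4.3.3, applied to log2(relative coverage + 0.1) with terms for state and dose, where relative coverage averaged 0.1 or more over the libraries. Log2 changes on this scale understate those of low tiles. Data with independent noise were simulated for the auxin comparison by file-name groups over the 60734 tiles of all contigs. The fit recovered 189 of 200 tiles planted at a log2 change of 1 with 6 false calls. This does not measure how well a change would be found in mitochondrial tiles or by the labels. Single values were compared by two-sided exact permutation within strata, and mitochondrial with nuclear values by exact sign flips over libraries, with Python 3.11.15, numpy 2.4.6 and scipy 1.17.1. Named genes and tiles followed a rule. Members and lists were chosen with earlier results of these data known. Base composition was not analysed here.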

Additional observations from a re-analysis of the deposited data

Results flagged for a closer look

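In groups of 4 to 10 libraries, 3 of 96 values tested lay far from the others of their group by Dixon's criterion, which chance gives in about 1 in 20 groups. All were in no OsTIR1 high replicate 2, the library with 8382 mitochondrial fragments. Its COB relative coverage was 1.23, the lowest of the 6 libraries labelled high and of the 6 that are high-dose by file name. Its ATP6 relative coverage was 1.35, the lowest of the 6 that are high-dose by file name. The part of its depth in these values was not tested.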

How the results depend on the processing

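Grouping by file name in place of the labels brought the dose differences in share (−9.0 points; −5.48 on the log2 scale) and fragment length (19.9 bp) past the threshold and the dose counts to 209 tiles and 26 genes from 0. The 7 matching libraries gave 108 tiles and 12 genes. Within file-name groups (chosen after seeing the data) the tile count was 213 with a pseudocount of 0.5, 200 without the filter, 204 with trend and robust moderation, 236 with the contig median and 80 with 500 bp tiles, and the gene count 30 with the contig median and 27 with a pseudocount of 0.5.

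No auxin or OsTIR1 value passed under any setting run, and several changed sign. For share, fragment length and gene ratio none could pass, since exact permutation within doses allowed no p below 0.0556. The auxin difference in share was 0.125 points in the 7 matching libraries, 1.41 with nuclear fragment length in place of dose and 0.0131 at the high dose by file name. In fragment length it was −1.53 bp with nuclear fragment length in place of dose. In the gene over intergenic ratio it was 0.0103 by file name and 0.0786 at the low dose by file name. The OsTIR1 difference in share was 0.213 (labels) and 0.720 (file name) on the log2 scale, and 0.158 points at the high dose by file name.

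Comparisons with the nucleus lost the threshold in the 7 matching libraries for length (−8.58 bp) and variation (0.141). In the libraries of low dose by file name, where 5 libraries allow no p below 0.0625, length was −19.7 bp, the gene ratio 0.984 and variation 0.123. The mean difference in spacing, given with no test, was −0.135 in the 7 matching libraries and −0.00377 at the low dose. At the high dose length was −0.377 bp.

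Ranges from leaving out each library in turn are given by the labels first and by file name second. In share they were −2.88 to 2.34 and −1.75 to 0.0131 points for auxin. For OsTIR1 they were −5.39 to 0.622 and −3.85 to 1.16 points, and for dose −7.78 to −1.51 and −10.6 to −6.28 points. In length they were −1.54 to 11.5 and 1.86 to 4.03 bp for auxin. For OsTIR1 they were −10.4 to 0.188 and −6.94 to −4.49 bp, and for dose 1.54 to 10.7 and 19.2 to 20.6 bp. In the gene ratio they were −0.192 to −0.00773 and −0.0353 to 0.0656 for auxin, and −0.122 to 0.0227 and −0.277 to −0.167 for dose. By the labels 0 tiles and 0 genes passed for dose whichever library was left out. By file name 145 to 245 tiles and 17 to 31 genes did.

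By the labels, same-numbered libraries deviated together in 5 of 10 pairs of groups (r −0.852 to 0.708). Some labelled groups hold libraries of different file-name dose, so these values cannot show whether replicate numbers pair libraries. Between the high and the low dose without OsTIR1, where labels match file names, r was 0.556. With a replicate block 0 tiles and 0 genes passed by the labels and 190 tiles and 20 genes by file name. Depth limits tile values most in no OsTIR1 high replicate 2.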
